A study of Mus musculus with 6 samples.

Results

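The microRNA processing and Argonaute genes are the machinery that makes microRNAs and carries out their silencing. They were taken here as 10 genes, Dicer1, Drosha, Dgcr8, Xpo5, Tarbp2, Ago1, Ago2, Ago3, Tnrc6a and Tnrc6b, each found by its symbol in the platform's probe annotation. These genes were read by 27 of the 45281 probes on the array. Of the 27, 17 were bright enough to enter the main test and 10 were not, and all 27 are described. The genes were chosen for their function and not by a threshold on these values.

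Sciatic nerves were taken from mice at postnatal day 14, and their total RNA was measured on Illumina bead arrays (Mouse WG-6 version 2), 3 of mutants and 3 of control littermates. The mutants are labelled P0 Cre Dicer F or N. Cre recombinase is driven in them by the promoter of P0, the chief protein of peripheral myelin, which is active in the Schwann cell lineage. The meaning of F or N, the exact Dicer alleles of each mutant, the alleles of the controls and the number of animals behind an array are not given in the sources used here. Both sexes are named for every sample. A nerve also holds fibroblasts, vessels, immune cells and axons, in which this promoter is not expected to drive Cre, so each value mixes cells with and without recombination. In such bulk RNA, fewer cells of a type and less RNA per cell cannot be told apart.

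A microRNA starts as a hairpin in a long primary transcript. In the nucleus the RNase Drosha, held on the hairpin by its partner Dgcr8, cuts the hairpin free, and exportin 5, the product of Xpo5, carries it to the cytoplasm. There Dicer, with its RNA-binding partner Tarbp2, cuts it to a short duplex, and 1 strand is loaded into an Argonaute protein. Argonaute binds target messages through the seed of the microRNA, bases 2 to 8, and the GW182 proteins encoded by Tnrc6a, Tnrc6b and Tnrc6c link it to the enzymes that shorten the poly(A) tail and remove the cap. In Schwann cells this pathway is known to be needed for myelination.

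Hairpins of this kind also lie inside 3 of the 10 genes themselves, where 2.42% of 21900 protein-coding genes of the RefSeq table hold one, on the gene's strand where that was known. Dgcr8 holds the hairpins of miR-3618 and miR-1306, and its message is known to be a substrate of the Drosha complex it belongs to. Xpo5 holds miR-693 and Tnrc6b holds miR-5113. The mature sequences are shown because their hairpins lie within the span of these genes. Whether a hairpin is in an exon or an intron, and so in the RNA that the probes read, was not checked. The seed is in capitals, and the sequences are from RefSeq on build GRCm38.p6. In the order printed they lie at chr16:18284602-18284623, chr16:18284562-18284583, chr16:18284288-18284310 and chr16:18284248-18284268 on the minus strand, and at chr17:46231551-46231571, chr17:46231581-46231603 and chr15:80940049-80940071 on the plus strand.
miR-3618-5p: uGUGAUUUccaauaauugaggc
miR-3618-3p: cUACAUUAaugaaaagagcaau
miR-1306-5p: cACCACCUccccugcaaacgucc
miR-1306-3p: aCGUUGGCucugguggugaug
miR-693-5p: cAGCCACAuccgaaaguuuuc
miR-693-3p: gCAGCUUUcagauguggcuguaa
miR-5113: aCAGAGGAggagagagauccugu
The 7 mature forms have 7 different seeds. Their own abundance was not analysed here.

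Signals are on the deposited log2-like scale, on which the array values run from 7.96 to 15.91 and the median of all probes is 8.24. Whether this scale is plain log2 is not settled, so each difference is mutant minus control on that scale, and precision is limited by having 3 arrays a group. The 18420 brightest probes by their mean over the 6 arrays, at least 8.34, were tested with limma, and a probe was called at a Benjamini-Hochberg adjusted p under 0.05. In this test 35.8% of probes were called, 19.9% higher and 15.9% lower in mutants. Probes of a gene are numbered from the brightest, and levels are not compared between probes. Arrays correlated at 0.992 to 0.995 among controls, 0.973 to 0.993 among mutants and 0.912 to 0.942 between the groups. Of 5 listed Schwann lineage markers 3 were tested, and Sox10 stood at 13.98 ± 0.119 in mutants and 13.94 ± 0.023 in controls (SD, n = 3 each). S100b was lower, with a difference of -1.19, and Erbb3 lay near the dim end at 8.37 and 8.32.

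Markers of other cells differed between the groups to unequal degrees. By the brightest tested probe, 22.0% of all genes were called higher and 17.6% lower. The mean level of the 3 tested proliferation markers, all called higher, ran from 10.73 to 10.98 in mutants and from 8.97 to 9.02 in controls. Of 5 mast cell markers 4 were called higher (9.67 to 10.08 against 9.13 to 9.24), and of 5 fibroblast markers 2 were (14.12 to 14.46 against 13.74 to 13.86). Of 4 macrophage markers limma called 1 lower and 0 higher (1 lower and 1 higher at an unadjusted p under 0.05). It called 0 of 4 endothelial and 0 of 3 adipocyte markers (0 and 1 at an unadjusted p under 0.05). The 5 skeletal muscle markers ran from 9.81 to 12.01 in mutants, lowest in mutant replicate 3, and from 12.02 to 13.46 in controls, and limma called 0 of them (1 at an unadjusted p under 0.05). None of 3 T and B cell markers with probes was bright enough to test. The part of these cells in the results below was not tested.

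Of the 17 tested probes of the microRNA genes, 8 were called higher and 1 lower in mutants, and 8 were not called, where 19.9% of all tested probes were called higher and 15.9% lower. The called probes come from 6 genes, and probes of 1 gene read transcripts of that same gene, so they are not independent. Tnrc6a and Ago2 had the largest differences, on a pair of probes each, followed by both probes of Tarbp2. Smaller differences were called for 1 of 2 tested probes each of Drosha and Tnrc6b, both higher, and of Dicer1, lower. Dgcr8, Xpo5 and Ago3 were not called, and Ago1 was too dim to test. The median difference over the 17 probes was 0.23, against 0.01 over all tested probes. Taken by the brightest tested probe, 3 of 9 genes were called higher by limma and 0 lower (3 and 0 also at an unadjusted p under 0.05), where 22.0% and 17.6% of 10273 genes were (39.6% in all), and the median of the 9 was 0.07, against 0.01 over all genes. All 17 probes reached the brightness minimum on their control mean and on their mutant mean alike, so none entered the test through 1 group. The 2 groups did not overlap on 10 of the 17 probes, against 52.1% of all tested probes.

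**Figure D1:**
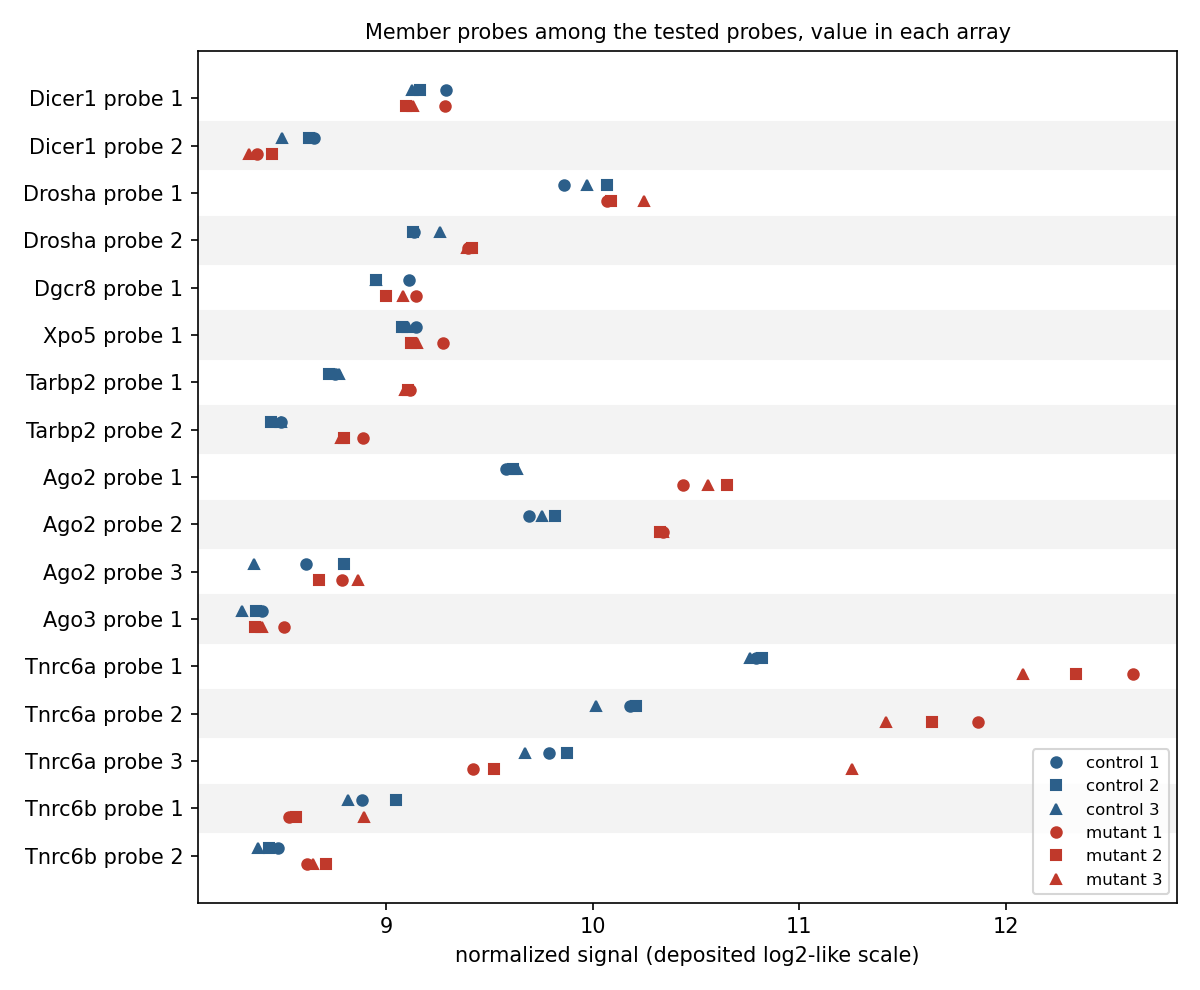
Normalized signal on the deposited log2-like scale (x axis) of the 17 tested probes of the microRNA genes (y axis), 1 point per array, controls in blue and mutants in red, with the symbol giving the replicate. Mutants lie apart from controls on probes 1 and 2 of Ago2, Tnrc6a and Tarbp2, and on Tnrc6a probe 3 mutant replicate 3, at 11.26, stands alone above the other arrays.

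**Figure D2:**
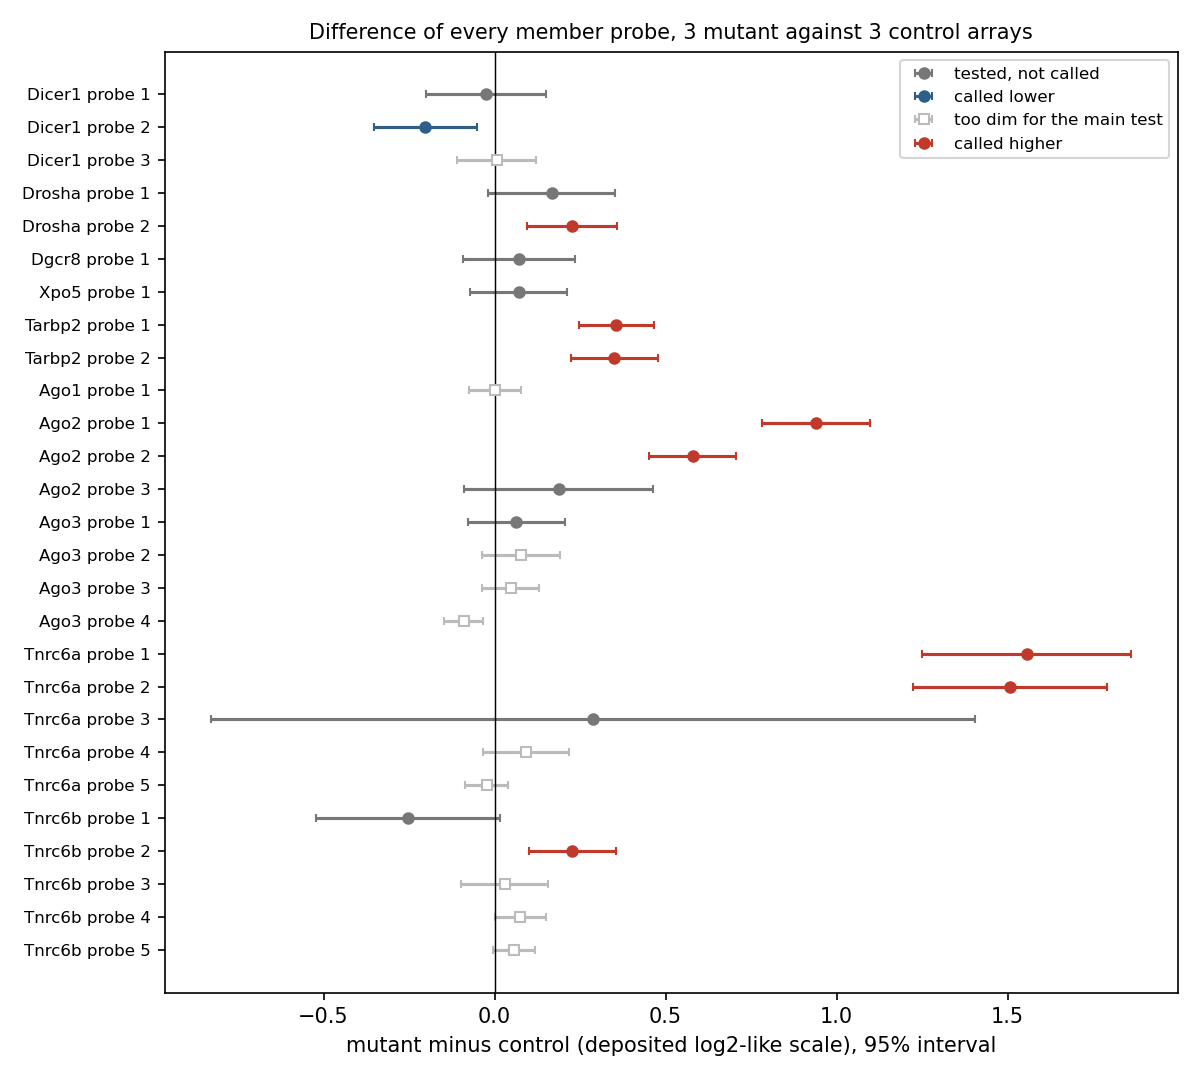
Mutant minus control on the deposited log2-like scale (x axis) with its 95% interval for all 27 probes (y axis), filled circles for the 17 tested probes and open squares for the 10 dimmer ones, whose interval is from a fit of all probes. The differences run from -0.25 for Tnrc6b probe 1 to 1.55 for Tnrc6a probe 1.

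The nuclear step is that of Drosha and Dgcr8. Drosha probe 1 read 10.07, 10.09 and 10.25 in the 3 mutant arrays and 9.86, 10.07 and 9.97 in the controls. All mutants lay above the highest control, replicate 1 by less than the digits printed, but the difference of 0.17 (95% interval -0.02 to 0.35) was not called by limma (adjusted p = 0.142). Drosha probe 2 read 9.40, 9.42 and 9.39 in mutants and 9.14, 9.13 and 9.26 in controls. The groups did not overlap, and the probe was called higher by 0.23 (SE 0.055, limma adjusted p = 0.0198). Without mutant replicate 2 or control replicate 1 or 2 the limma adjusted p was 0.0642, 0.0793 and 0.0738. The rise of the 2 Drosha probes differed by -0.06 (SE 0.094), which is within the spread between arrays.

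Dgcr8, the partner that recognises the hairpin, was read by 1 probe, with 9.15, 9.00 and 9.08 in mutants and 9.11, 8.95 and 8.95 in controls. The groups overlapped, and the difference was 0.07 (95% interval -0.09 to 0.24, limma adjusted p = 0.465). Xpo5, the export receptor, gave 9.27, 9.12 and 9.15 in mutants and 9.15, 9.08 and 9.11 in controls. Its difference was also 0.07 (95% interval -0.07 to 0.21, limma adjusted p = 0.402). Both intervals leave out a change as large as that of the brighter Tarbp2 probe, 0.36.

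Dicer1, the gene named in the genotype, has 3 probes. Their place relative to the altered part of the gene is not known, so they do not check the labels. Probe 1 read 9.28, 9.10 and 9.13 in mutants and 9.29, 9.17 and 9.13 in controls. The groups overlapped nearly whole (difference -0.02, 95% interval -0.20 to 0.15, limma adjusted p = 0.832). Probe 2 read 8.38, 8.45 and 8.34 in mutants and 8.65, 8.63 and 8.50 in controls. All mutants were below all controls, and the probe was called lower at -0.20 (SE 0.063, limma adjusted p = 0.0458). This call did not hold with the replicate number as a block (limma adjusted p = 0.0529), with all probes tested (0.0558), or without any single array other than control replicate 3 (0.0602 without mutant replicate 1, 0.0634 and 0.113 without mutant replicates 2 and 3, 0.15 and 0.137 without control replicates 1 and 2). Probe 3, annotated to a clone and not to the RefSeq transcript, was too dim for the test at 8.29 in both groups. Within arrays, probe 1 minus probe 2 was 0.78 ± 0.130 in mutants and 0.60 ± 0.055 in controls (SD, n = 3 each). The groups did not overlap in this quantity, and the exact permutation p was 0.1, the smallest that 3 against 3 arrays can give.

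Tarbp2 encodes TRBP, the double-stranded RNA binding partner of Dicer. Its probe 1 read 9.12, 9.11 and 9.09 in mutants and 8.75, 8.73 and 8.77 in controls. Probe 2 read 8.89, 8.80 and 8.78 in mutants and 8.49, 8.44 and 8.49 in controls. On both probes every mutant was above every control, with differences of 0.36 (SE 0.046, limma adjusted p = 0.00147) and 0.35 (SE 0.053, limma adjusted p = 0.00286). The 2 rises differed by 0.005 (SE 0.029), so Tarbp2 is the gene whose probes moved most alike. Within arrays, Dicer1 probe 1 minus Tarbp2 probe 1 was lower in mutants than in controls by a difference of -0.38 (SE 0.075), with no overlap of the groups (exact permutation p = 0.1). This contrast mostly repeats the rise of Tarbp2 probe 1, and it was added after the values were seen.

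The 3 Argonaute genes were read very unequally. Ago2 encodes the Argonaute that can itself cut a fully paired target. Its probe 1 read 10.44, 10.65 and 10.56 in mutants and 9.58, 9.62 and 9.64 in controls. Its probe 2 read 10.34, 10.32 and 10.34 in mutants and 9.69, 9.82 and 9.76 in controls. Mutants lay above controls on both, and both were called higher, by 0.94 (SE 0.067, limma adjusted p = 0.000112) and 0.58 (SE 0.053, limma adjusted p = 0.00032). Probe 3 read 8.79, 8.68 and 8.87 in mutants and 8.61, 8.80 and 8.36 in controls. Here the groups overlapped and the difference of 0.19 (95% interval -0.09 to 0.46) was not called (limma adjusted p = 0.257). Probe 3 is the one that the annotation ties to the RefSeq transcript of Ago2, while probes 1 and 2 carry the symbol without a transcript.

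The 3 Ago2 probes therefore did not give 1 size of change. Within arrays, probe 1 minus probe 2 was 0.21 ± 0.113 in mutants and -0.15 ± 0.051 in controls (SD, n = 3 each). Probe 1 minus probe 3 was 1.77 ± 0.175 and 1.02 ± 0.232. In neither did the groups overlap, and the exact permutation p was 0.1 for each, the smallest possible. The direction of Ago2 was higher on all 3 probes in every alternative run.

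Ago3, a close relative on the same chromosome as Ago1, has 4 probes, of which 1 was tested. That probe read 8.51, 8.36 and 8.40 in mutants and 8.40, 8.37 and 8.31 in controls. The groups overlapped, with a difference of 0.06 (95% interval -0.08 to 0.21, limma adjusted p = 0.451). The other 3 probes, with group means between 8.21 and 8.38, had differences of 0.08, 0.05 and -0.09, and on the last all mutants (8.20, 8.23 and 8.21) were below all controls (8.34, 8.28 and 8.30). In the fit of all probes this last probe was not called (limma adjusted p = 0.0601). Groups did not overlap on 15.5% of all probes too dim for the test. Ago1 had 1 probe, at 8.12, 8.07 and 8.09 in mutants and 8.05, 8.15 and 8.07 in controls, below the median of the array, so that no change of Ago1 could be read here. Ago2 probe 1 minus the tested Ago3 probe was higher by 0.88 in mutants than in controls (SE 0.113), with no overlap of the groups and an exact permutation p of 0.1. Set against Ago4, which read 8.49 in mutants and 8.43 in controls, the value was also 0.88 (SE 0.105, exact permutation p = 0.1). The Ago3 and Ago4 probes lay near the lowest tested mean of 8.34, which limits what could be read of their own change. Both contrasts thus mostly repeat the rise of Ago2 probe 1, and they were added after the values were seen.

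Tnrc6a, which encodes a GW182 protein, had the largest difference of the 10 genes. Its probe 1 read 12.62, 12.34 and 12.08 in mutants and 10.79, 10.82 and 10.76 in controls. Its probe 2 read 11.87, 11.64 and 11.42 in mutants and 10.18, 10.21 and 10.02 in controls. On both probes mutant replicate 1 was highest and mutant replicate 3 lowest of the mutants, and all mutants were more than 1 unit above all controls. The rises were 1.55 (SE 0.128, limma adjusted p = 0.000209) and 1.51 (SE 0.119, limma adjusted p = 0.000174), which on a plain log2 scale would be 2.94-fold and 2.84-fold. They were the only ones of the 27 probes called at a difference of at least 1, where 4.50% of all tested probes were. The 2 rises differed by 0.05 (SE 0.053), less than the spread between arrays.

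Tnrc6a probe 3 did not follow them. It read 9.42, 9.52 and 11.26 in mutants and 9.79, 9.88 and 9.67 in controls. Mutant replicates 1 and 2 were below every control and mutant replicate 3 was far above every other array. The difference of 0.29 had an interval from -0.83 to 1.40 and was not called (limma adjusted p = 0.673). Without mutant replicate 3 its sign turned, and it was called lower at -0.31 (limma adjusted p = 0.0343). Mutant replicate 3 was also the array with the lowest skeletal muscle markers, such as Acta1 at 11.52 against 13.90 to 15.08 in the other 5 arrays. Whether this bears on Tnrc6a probe 3 was not tested. Tnrc6a probe 3, like the brighter Ago2 probes, carries the symbol without a transcript in the annotation. Probes 4 and 5 lay near the floor, at 8.36 and 8.10 in mutants and 8.27 and 8.12 in controls.

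Tnrc6b, another GW182 gene, has 5 probes, and the 2 that were tested are annotated to different RefSeq transcripts. Probe 1, annotated to NM_144812, read 8.53, 8.57 and 8.89 in mutants and 8.88, 9.05 and 8.82 in controls. Mutant replicates 1 and 2 were below all controls and mutant replicate 3 was among them. The difference was -0.25 (SE 0.113, limma adjusted p = 0.129), and it was called lower without mutant replicate 3 (-0.37, limma adjusted p = 0.021) and with array weights (-0.32, limma adjusted p = 0.0127). Probe 2, annotated to NM_177124, read 8.62, 8.71 and 8.65 in mutants and 8.48, 8.44 and 8.38 in controls. No mutant overlapped a control, and the probe was called higher by 0.23 (SE 0.053, limma adjusted p = 0.017). That call was lost without mutant replicate 2 (0.0607) and without control replicate 2 (0.0565) or 3 (0.0594). Probe 1 minus probe 2 was 0.004 ± 0.209 in mutants and 0.48 ± 0.112 in controls (SD, n = 3 each), with no overlap and an exact permutation p of 0.1. The other 3 probes had group means between 8.21 and 8.31, with differences of 0.03 to 0.08, and were too dim for the test. Probes 3 and 5 are annotated to the same transcript as probe 2. On probe 5 (0.06) and on probe 4 (0.08) every mutant was above every control, and on probe 3 (0.03) the groups overlapped. In the fit of all probes, probes 5 and 4 were not called (limma adjusted p = 0.248 and 0.193). Of all probes too dim for the test, 15.5% had no overlap of the groups.

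**Figure D3:**
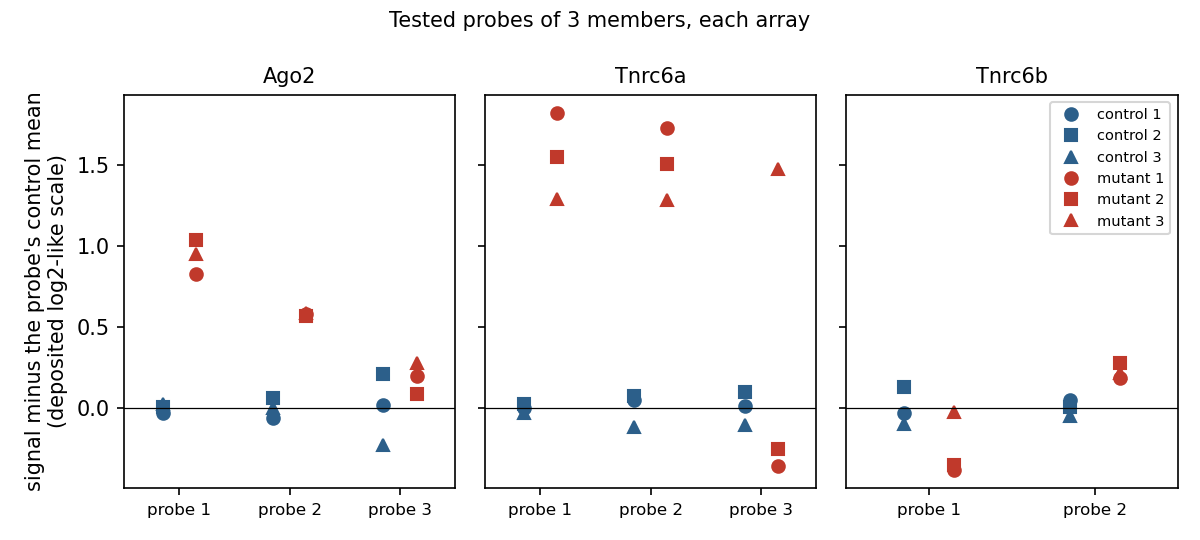
Signal of each array minus the control mean of that probe, on the deposited log2-like scale (y axis), for the tested probes of Ago2, Tnrc6a and Tnrc6b (x axis), controls in blue and mutants in red. Probes of 1 gene part from each other: Ago2 rose by 0.94 and 0.58 on its first probes and stood at 0.19 on probe 3, Tnrc6a probe 3 is high in mutant replicate 3 alone, and Tnrc6b stood at -0.25 on probe 1, not called, and rose by 0.23 on probe 2.

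Of the 6 genes with several tested probes, 5 had both called and uncalled probes, and Tarbp2 was the exception. Among all genes with several tested probes this was so for 28.8% of 3834. Over the 8 pairs of probes of 1 gene, the change of the brightest probe differed from that of the other without overlap of the groups in 4, namely for Dicer1, for Tnrc6b and for both pairs of Ago2. Both Ago2 pairs share probe 1. The share of such pairs over all genes was not computed, so the count is not read as particular to these genes. With 3 arrays a group the exact test cannot pass 0.05, and adjusted over all 14 pairs compared here the p of these 4 was 0.156. Between paralogs, Tnrc6a probe 1 rose by 1.81 more than Tnrc6b probe 1 changed (SE 0.268) and by 1.38 more than Tnrc6c (SE 0.135). Each contrast had no overlap of the groups and an exact permutation p of 0.1. Both mostly repeat the rise of Tnrc6a probe 1, and they were added after the values were seen.

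The region before the gene start is shown for Tnrc6a, Tnrc6b and Tarbp2, because Tnrc6a had the largest rise, Tarbp2 the rise on which its probes were most alike, and Tnrc6b has probes annotated to more than 1 transcript, of which 1 was called. The RefSeq promoter table (GRCm38.p6, 250 bases before to 50 after a start) holds 11 entries for 9 of the 10 genes, with Ago2 the gene without one and 2 overlapping windows for Ago1. Capitals mark matches on either strand to CCAAT, known as a site of the factor NF-Y, to TATAAA, the core promoter box, to GGGCGG, the GC box, or to CACGTG, an E-box, and neighbouring matches may overlap. The windows are chr7:123123635-123123934 for Tnrc6a, chr15:80711063-80711362 and chr15:80798360-80798659 for the 2 starts of Tnrc6b, and chr15:102517942-102518241 for Tarbp2, all on the plus strand. Which Tnrc6b start belongs to which transcript is not stated in the table.
Tnrc6a: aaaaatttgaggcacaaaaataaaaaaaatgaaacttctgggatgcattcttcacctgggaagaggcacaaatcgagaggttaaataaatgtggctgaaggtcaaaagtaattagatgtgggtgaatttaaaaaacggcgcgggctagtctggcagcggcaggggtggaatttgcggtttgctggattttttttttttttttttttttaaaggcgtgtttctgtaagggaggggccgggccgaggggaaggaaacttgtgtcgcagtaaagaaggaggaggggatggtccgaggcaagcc
Tnrc6b first start: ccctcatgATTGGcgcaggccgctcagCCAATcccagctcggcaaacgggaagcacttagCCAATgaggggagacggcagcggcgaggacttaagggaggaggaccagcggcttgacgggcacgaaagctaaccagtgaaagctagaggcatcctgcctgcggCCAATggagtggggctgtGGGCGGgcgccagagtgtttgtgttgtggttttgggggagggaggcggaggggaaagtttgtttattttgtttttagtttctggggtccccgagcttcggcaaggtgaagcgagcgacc
Tnrc6b second start: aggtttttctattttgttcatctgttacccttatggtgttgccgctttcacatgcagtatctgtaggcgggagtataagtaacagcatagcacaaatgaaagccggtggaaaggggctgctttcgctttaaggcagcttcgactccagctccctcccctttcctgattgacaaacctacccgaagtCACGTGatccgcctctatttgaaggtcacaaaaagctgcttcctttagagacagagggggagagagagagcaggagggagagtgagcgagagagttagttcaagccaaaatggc
Tarbp2: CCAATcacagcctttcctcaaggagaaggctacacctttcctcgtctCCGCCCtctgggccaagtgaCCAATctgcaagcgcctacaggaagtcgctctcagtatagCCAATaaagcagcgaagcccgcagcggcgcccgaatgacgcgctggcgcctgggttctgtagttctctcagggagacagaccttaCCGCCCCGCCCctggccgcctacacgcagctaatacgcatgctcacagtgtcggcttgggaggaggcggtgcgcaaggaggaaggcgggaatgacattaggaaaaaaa
CCAAT was present 3 times in the Tarbp2 window and 4 times at the first Tnrc6b start, and 7 of the 11 windows held it, against 37.4% of all 32851. The 2 overlapping Ago1 windows share the same CCAAT and GGGCGG matches and are counted separately in these numbers. The letters GGGCGG were in 8 of 11 windows (35.7% of all), CACGTG in 1, the second Tnrc6b start (7.15% of all), and TATAAA in 0 (13.6% of all). The Tnrc6a window held none of them. G and C made up 44.7% of its bases, the lowest of the 11, which reached 77.3% for Dicer1, against a median of 52.7% over all windows.

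Patterns most like those of the genotype gene and of the member with the largest difference were sought among 10272 other genes by Pearson correlation over the 6 arrays. Dicer1 probe 1 was followed most closely by Sugp1 (r = 0.968), St8sia4 (r = 0.963) and Pnisr (r = 0.957), which were not called either, with differences of -0.04, -0.04 and -0.03. Tnrc6a probe 1 was followed by Ubap2, Epb41l3 and Frmd4a, each at r = 0.999, with differences of 0.60, 1.93 and 0.99. For Tnrc6a 200 genes exceeded 0.99 and for Dicer1 0 did. With 6 arrays in 2 separate groups, the likeness to Tnrc6a follows largely from the gap between the groups.

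The rest of the pathway was taken as 50 further genes, of which 40 were tested by their brightest probe. Many of them have further probes, which are not reported here, so each statement on such a gene rests on 1 probe. Of these 40, 15 were called higher and 2 lower, where 22.0% and 17.6% of all genes were, and the median difference was 0.23, against 0.01 over all genes. The count of higher genes moved with the arrays used, to 9, 8 and 9 without control replicates 1, 2 and 3, and to 24 with array weights, which set mutant replicate 1 lowest and mutant replicate 2 highest. The lower count was 0 without control replicate 1 or 2, and 1 without mutant replicate 2 or control replicate 3. The share of all probes called moved too, from 35.8% to 25.0%, 25.8% and 26.4% without control replicates 1, 2 and 3 and to 52.9% with array weights.

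Among 7 nuclear cofactors and export genes 4 were called higher, where 22.0% of all genes were. Hnrnpa1, an RNA-binding protein that aids the cutting of some hairpins, read 12.34, 12.21 and 11.93 in mutants and 11.21, 11.24 and 11.53 in controls, a rise of 0.84 (SE 0.130, limma adjusted p = 0.00328). Srrt, which links capped transcripts to Drosha, rose from 9.85 to 10.43. The helicase genes Ddx17 and Ddx5, cofactors of Drosha, rose by 0.36 and 0.24, and both calls were lost in at least 6 of 12 alternatives (limma adjusted p up to 0.0912 and 0.12). With the replicate number as a block Ddx17 was called (limma adjusted p = 0.0216) and Ddx5 was not (0.0749). Khsrp, Ran and Adar were not called. Of 7 genes that act on the precursor 3 were tested, and 1 was called, which as a share is no more than the 39.6% of all genes. The called gene was Tut7, a uridylyltransferase of precursors, which rose from 11.77 to 12.14 (difference 0.36, SE 0.076). Prkra, a relative of Tarbp2 that also binds Dicer, was at 10.31 in mutants and 10.28 in controls, while Lin28a, Lin28b, Tut4 and Trim71 were too dim to test.

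Among 11 tested partners of the silencing complex 3 were called higher and 1 lower, which as a share is no more than the 39.6% of all genes called in either direction. Limd1, a scaffold that binds Argonaute, read 11.04, 10.98 and 10.93 in mutants and 10.29, 10.23 and 10.19 in controls, a rise of 0.75 (SE 0.056, limma adjusted p = 0.000144). Fmr1 rose by 0.36, and its relative Fxr2 fell by 0.50 (SE 0.116, limma adjusted p = 0.0166), a call lost without control replicate 1 or 2 (limma adjusted p up to 0.066). The GW182 gene Tnrc6c was just called, at 0.17 (SE 0.054), and lost its call in 10 of 12 alternatives, every single-array omission and the replicate block (0.103) included. The Argonaute gene Ago4 was not called (0.06, SE 0.063), nor were the chaperone genes Hspa8 (0.38) and Hsp90aa1 (0.29).

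Of 11 tested genes of deadenylation limma called 5 higher and 0 lower (6 and 0 at an unadjusted p under 0.05), where 22.0% and 17.6% of all genes were (39.6% in all). All 5 are subunits of the CCR4-NOT complex, which removes the poly(A) tail and makes up most of this list. The subunit genes Cnot2, Cnot4, Cnot6 and Cnot10 were also tested and were not called (-0.01, 0.05, 0.09 and 0.14). Of the called genes, the scaffold Cnot1 rose by 0.59 (SE 0.154) and the catalytic subunit genes Cnot7 and Cnot6l by 0.33 and 0.32. Cnot9 rose by 0.32 and Cnot3 by 0.24. The calls of Cnot1, Cnot7 and Cnot6l were lost without any 1 of the control replicates (limma adjusted p up to 0.0817, 0.0831 and 0.0867), and those of Cnot1 and Cnot7 also without mutant replicate 2, while Cnot9 and Cnot3 were called in every alternative run in which they were tested. Pan2, a subunit of another deadenylase, and Pabpc1, the poly(A)-binding protein, were not called (0.28 and 0.38) but were with the replicate block (limma adjusted p = 0.0178 and 0.0319). Of 8 tested genes of decapping and decay, Patl1 and Edc4, both cofactors of decapping, were called higher and Dcp1b lower, 3 of 8 in all and close to the 39.6% of all genes. Patl1 read 10.34, 10.32 and 10.28 in mutants and 9.57, 9.57 and 9.60 in controls, a rise of 0.73 (SE 0.047, limma adjusted p = 7.56e-05). Edc4 rose by 0.30, a call lost without mutant replicate 2 or control replicate 2 or 3 (limma adjusted p up to 0.0589), and Dcp1b fell by 0.27, a call lost without any single array other than mutant replicate 1 (up to 0.0936). The helicase gene Ddx6 was at -0.30 and was not called (limma adjusted p = 0.074). Lsm14a, at 0.46, was not called (limma adjusted p = 0.0851) but was with the replicate block (0.0326).

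**Figure D4:**
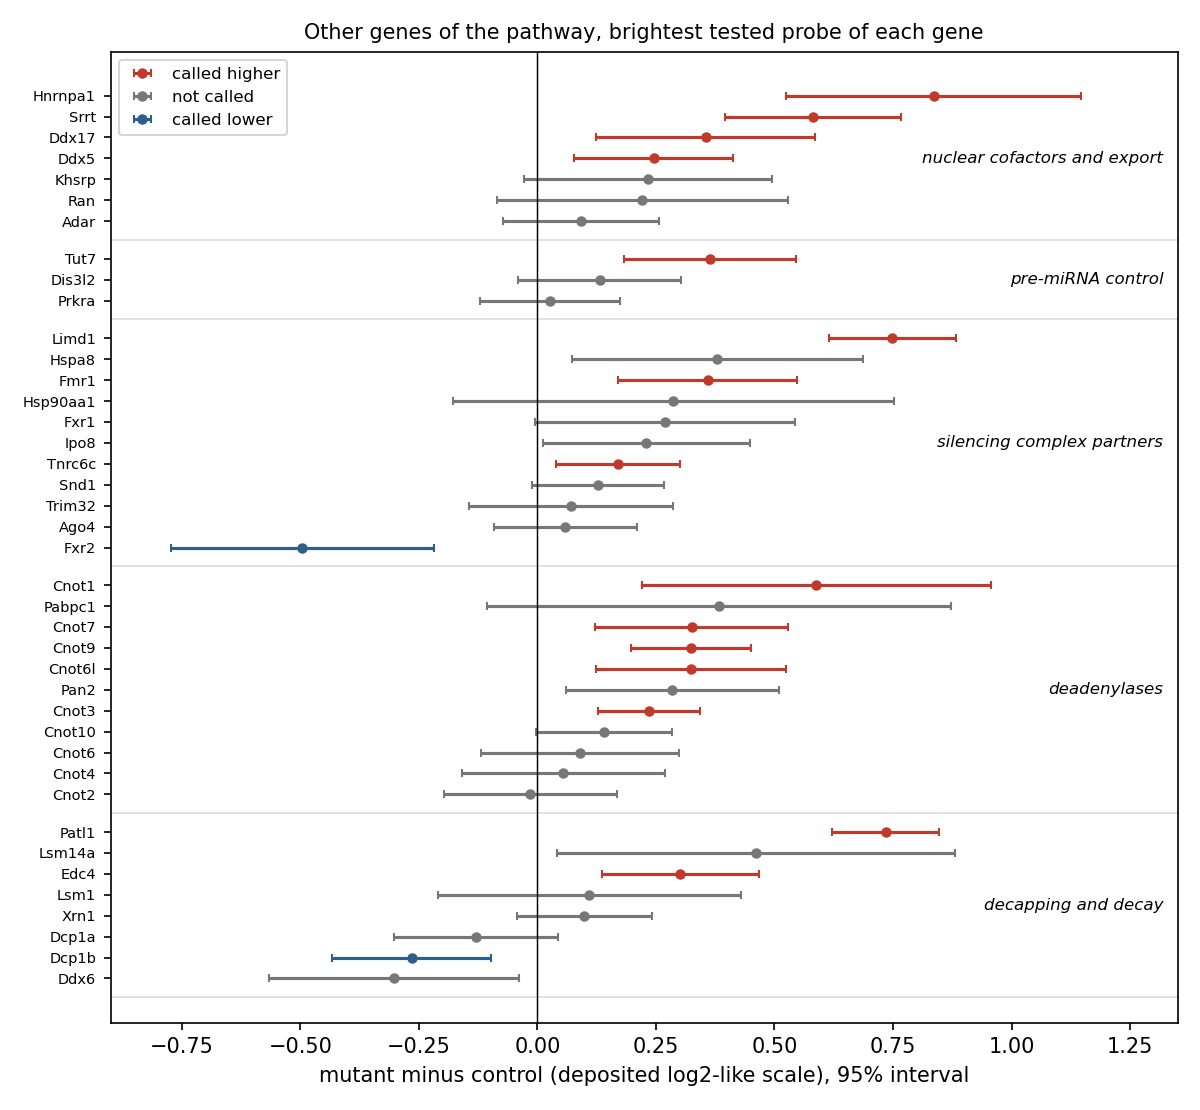
Mutant minus control on the deposited log2-like scale (x axis) with its 95% interval for the brightest tested probe of 40 further pathway genes (y axis), ordered by size within their 5 lists, with called genes in red (higher) or blue (lower). Called rises run from 0.17 for Tnrc6c to 0.84 for Hnrnpa1, all below those of the brighter Tnrc6a probes, and Fxr2 and Dcp1b are the genes called lower.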

How the data were processed

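The labels' 6 arrays (3 mutant, 3 control, none with identical values) were read from the table the authors deposited. Its log2-like values had been normalized with limma and RMA per the labels (series design text), and the submitters' processing notes name lumi 1.8.3. How background was corrected is not stated. The authors kept 18420 of 45281 probes on present calls per the labels; the same number, the brightest by mean over all arrays, was kept here. Symbols came from the platform annotation (34885 probes with 1 symbol, 18 with several, 10378 with none), and those of all 27 member probes were the same in RefSeq (GRCm38.p6). Differences were tested with limma 3.58.1 in R 4.3.3 (2-sided, 4 residual and 2.63 prior degrees of freedom, Benjamini-Hochberg over the kept probes). Such p-values reflect only how these samples vary, in part perhaps technically. Differences between probes were tested by 2-sided exact permutation over arrays, and the 6 pairs of different genes were added after the values were seen. Deviations from the group means correlated between same-numbered mutant and control arrays (r = 0.165, 0.155 and 0.224) and ran from -0.157 to 0.028 between the others. The sample titles number the arrays but do not state a pairing, and 3 arrays a group are too few to establish one. The replicate number was therefore used as a block in an alternative only, and the main test and the permutations did not use it. Named genes are the 10 members, up to 3 called genes per list and direction, the 2 brightest where none was called, and the genes nearest in pattern; further members of the fixed lists are named as examples chosen after their values were seen. The members and lists were chosen with earlier results of these data known. The steps were tested on simulated data.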

Additional observations from a re-analysis of the deposited data

How the results depend on the processing

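Over 194 recalculations of the 17 tested member probes under single changes of the processing, 178 kept direction and side of the threshold or stayed uncalled, 13 lost a call, 2 gained one, both Tnrc6b probe 1, and 1 reversed. The reversal was Tnrc6a probe 3, at -0.31 without mutant replicate 3; with each of the other arrays left out it ran up to 0.61. The lost calls were those of Dicer1 probe 2, Drosha probe 2 and Tnrc6b probe 2. Both called probes each of Tarbp2, Ago2 and Tnrc6a were called in every alternative in which they were tested. The count of member probes called higher was 6 to 8 and lower 0 to 2 when 1 array was left out. For the other pathway genes these counts were 8 to 18 and 0 to 2. With the replicate block 0 member probes were called lower (Dicer1 probe 2, limma adjusted p = 0.0529), and the block changed no other member call. Among the other pathway genes it ended the calls of Ddx5 and Tnrc6c and gave calls to Pan2, Pabpc1 and Lsm14a. With all probes tested, limma called 8 member probes higher and 0 lower. With a stricter filter to the 9210 brightest probes, in which 7 member probes remained, 5 were called higher and 0 lower. With array weights 2 member probes were called lower and 24 other pathway genes higher. A further cyclic loess normalization moved the median of all tested probes from 0.01 to -0.01 and the share of higher among called probes from 55.5% to 50.6%. Probes near the floor, such as that of Ago1, limit what could be read.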

Other observations

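The reading of Tnrc6a probe 3 in mutant replicate 3 stood 1.38 above the next array. Of the 18420 tested probes, 16 set mutant replicate 3 apart from the 5 other arrays by at least that much, in either direction, 9 set control replicate 2 apart and 0 set any of the other 4 arrays apart. At a gap of at least 1 the numbers were 59 for mutant replicate 1, 27 each for mutant replicate 3 and control replicate 2, 3 for control replicate 3, and 0 for mutant replicate 2 and control replicate 1.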
